A study of Homo sapiens with 6 samples.

Results

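The zinc finger genes of chromosome 19 were examined for peaks of the long noncoding RNA (lncRNA) CRLM1. They were defined as the protein-coding genes of chromosome 19 in the GENCODE annotation whose symbol begins with ZNF, and their positions were taken on the human genome build GRCh38. This rule gave 249 genes out of 1476 protein-coding genes on the chromosome and 20033 on all main chromosomes. The other 1227 protein-coding genes of chromosome 19 served as the comparison. The label was checked against the genome sequence by translating each gene and searching for the C2H2 finger pattern, in which 2 cysteines and 2 histidines are held at fixed spacing. At least 1 finger was found in 247 of the 249 genes, with a median of 12 and a maximum of 36. The exceptions were ZNF625-ZNF20 and ZNF816-ZNF321P, which are readthrough genes that join neighbouring transcripts.

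ChIRP-seq, in which biotinylated DNA probes pull down an RNA with the chromatin it touches, was performed in HCT116, a human colorectal cancer cell line. There were 6 libraries in 3 groups of 2 replicates. They were CRLM1_IP (captured with antisense oligos to CRLM1, annotated as LINC01767), LacZ (captured with antisense oligos to a bacterial gene) and Input (genomic DNA without capture). All came from the same cell line after formaldehyde crosslinking, and none of their labels names any other treatment or gene manipulation. The data were 4 peak lists, in which the CRLM1_IP library of each replicate was set against the Input or the LacZ library of the same number. They are called the Input list and the LacZ list of replicates 1 and 2, and values for all 4 are given in the order Input then LacZ, replicate 1 first. Both lists of a replicate therefore rest on one CRLM1_IP library, and a peak found in both is no independent second observation. Nothing in the labels says whether replicates came from separate cultures.

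C2H2 zinc finger proteins read DNA with tandem fingers, each of which contacts a few bases. Many members of the chromosome 19 clusters also carry a KRAB domain, which recruits the corepressor TRIM28 and, through it, the histone methyltransferase SETDB1, so that transposable elements and some genes are silenced. The genes arose by repeated tandem duplication, and their fingers are mostly encoded in a single long last coding exon that resembles that of their neighbours.

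The sequences of a pair of peaks called against both controls in replicate 1, of the peak over a finger exon and of the peak over a promoter are shown first, as examples. All but the last are printed on the forward strand of GRCh38, at most 300 bases each. In the first pair, capitals mark runs of 12 or more identical A or T bases. The peak of ZNF8 was among the 3 highest-scoring ZNF peaks of the replicate 1 LacZ list and ends in such a run, and that of ZNF420 has none and so no capitals.
ZNF8, chr19:58283317-58283616: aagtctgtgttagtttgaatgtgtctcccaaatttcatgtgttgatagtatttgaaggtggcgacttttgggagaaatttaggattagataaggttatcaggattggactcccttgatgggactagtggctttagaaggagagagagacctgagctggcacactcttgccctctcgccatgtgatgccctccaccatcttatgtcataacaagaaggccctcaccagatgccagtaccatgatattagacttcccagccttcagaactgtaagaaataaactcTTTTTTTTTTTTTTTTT
ZNF420, chr19:37123146-37123401: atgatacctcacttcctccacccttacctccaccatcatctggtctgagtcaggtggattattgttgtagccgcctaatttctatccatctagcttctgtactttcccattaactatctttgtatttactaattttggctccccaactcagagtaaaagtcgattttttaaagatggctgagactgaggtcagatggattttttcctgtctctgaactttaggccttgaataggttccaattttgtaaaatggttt
The peak of ZNF211 was the only one that overlapped finger-coding bases. Capitals mark the letters that encode fingers from the first cysteine to the last histidine, and the lower case between them is the linker that joins one finger to the next.
ZNF211, chr19:57641313-57641612: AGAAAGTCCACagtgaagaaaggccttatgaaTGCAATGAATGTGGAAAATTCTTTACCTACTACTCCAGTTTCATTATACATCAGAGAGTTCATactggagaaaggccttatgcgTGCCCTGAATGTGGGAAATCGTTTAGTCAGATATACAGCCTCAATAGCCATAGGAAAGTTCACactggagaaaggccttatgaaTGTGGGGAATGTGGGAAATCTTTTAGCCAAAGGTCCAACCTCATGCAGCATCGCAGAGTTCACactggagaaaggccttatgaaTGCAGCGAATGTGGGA
The promoter of ZNF497 is the RefSeq promoter on GRCh38, printed on the reverse strand in the direction of the gene. Capitals mark the 196 bases that lie under the peak.
ZNF497, chr19:58362702-58363001: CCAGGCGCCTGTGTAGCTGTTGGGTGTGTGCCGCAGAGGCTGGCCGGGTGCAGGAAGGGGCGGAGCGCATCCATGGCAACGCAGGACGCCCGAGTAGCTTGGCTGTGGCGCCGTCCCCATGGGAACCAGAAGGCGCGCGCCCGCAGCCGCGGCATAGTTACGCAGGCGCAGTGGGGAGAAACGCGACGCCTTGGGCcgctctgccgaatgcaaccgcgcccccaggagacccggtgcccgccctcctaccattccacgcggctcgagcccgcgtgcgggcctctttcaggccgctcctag

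The window of a gene was its body with the 5 kb before its start, and any peak with at least 1 bp in it was assigned to the gene. In the Input list of replicate 1, 16 of the 249 ZNF genes had a peak (6.43%, exact binomial 95% interval 3.72 to 10.2). The share was 1.55% in the other genes of the chromosome and 13.1% in the protein-coding genes of all main chromosomes. The LacZ list of replicate 1 placed a peak in 25 ZNF genes (10.0%, interval 6.60 to 14.5), with 13.0% of the other genes and 20.2% of all protein-coding genes. For replicate 2 the Input list placed one in 44 ZNF genes (17.7%, interval 13.1 to 23), with 8.31% and 22.2% in these backgrounds. The LacZ list of replicate 2 was short, and 4 ZNF genes had a peak in it (1.61%, interval 0.439 to 4.06), with 0.326% and 1.02% in the backgrounds. The ZNF share thus stood above that of the other genes of its own chromosome in 3 lists and below it in 1. It was below the share of all protein-coding genes in every list except the LacZ list of replicate 2. These intervals, and those below, cover counting error only, and neighbouring genes that share a peak are not independent.

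ZNF genes were longer than their neighbours, with a median of 26.1 kb (range 3.12 to 489) against 13.8 kb, so the counts were set against other genes of chromosome 19 in the same of 10 length bins. The expected numbers of ZNF genes were 5.65, 38.2, 27.8 and 0.803. Against Input, the observed number was 2.83 times the expected one in replicate 1 (95% interval 1.64 to 4.51) and 1.58 times in replicate 2 (1.18 to 2.06). Against LacZ, it was 0.655 times the expected one in replicate 1 (0.431 to 0.943). For replicate 2 it was 4.98 times (1.36 to 12.6), which rests on 4 genes that held 3 peaks between them. The intervals treat the expected number as fixed. Under some settings they spanned 1. With the ZNF genes whose window overlaps no other gene window, the ratio was 1.83 (0.600 to 4.12, on 5 genes) in the Input list of replicate 1 and 0.554 (0.259 to 1.01) in its LacZ list. With peaks at or above the median score it was 1.33 (0.364 to 3.36) and 0.621 (0.343 to 1.02) in these lists. For replicate 2 against Input it was 1.4 (0.912 to 2.04) at the median score and 1.28 (0.805 to 1.92) with scores of at least 60. For replicate 2 against LacZ it was 4.98 at the median score, on 2 genes, with an interval of 0.604 to 17.8. With the peak midpoint required in the window, it was 3.73 in that list, on 3 genes, with an interval of 0.772 to 10.8. When protein-coding genes of all chromosomes were used in place of those of chromosome 19, the ratio against Input turned to 0.826 in replicate 1 and came to 1.12 in replicate 2. The 2 ratios above 1 against Input thus refer to the other genes of chromosome 19, and their intervals did not exclude 1 under every setting. Matching on GC as well is given below. In these lists the chromosome held 63 of the 9331 peaks of replicate 1 and 225 of the 16777 of replicate 2. Whether this bears on the change of the ratios was not tested.

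Longer ZNF genes more often had a peak. The ZNF genes were split by length into 3 classes of 83. In the Input list of replicate 2 the share with a peak was 7.23% in the shortest class, 18.1% in the middle and 27.7% in the longest. Other genes in the same classes gave 3.65%, 10.2% and 19.6%. The classes share edges but not exact lengths, and the shortest other gene had 0.153 kb, beside 3.12 kb for the shortest ZNF gene. The LacZ list of replicate 1 turned the order of the groups in each length class, with 3.61%, 10.8% and 15.7% of ZNF genes and 8.92%, 15.7% and 22.1% of the others. Its Input list gave ZNF shares of 2.41%, 7.23% and 9.64%, with the others at 0.270%, 2.31% and 4.43%.

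**Figure D1:**
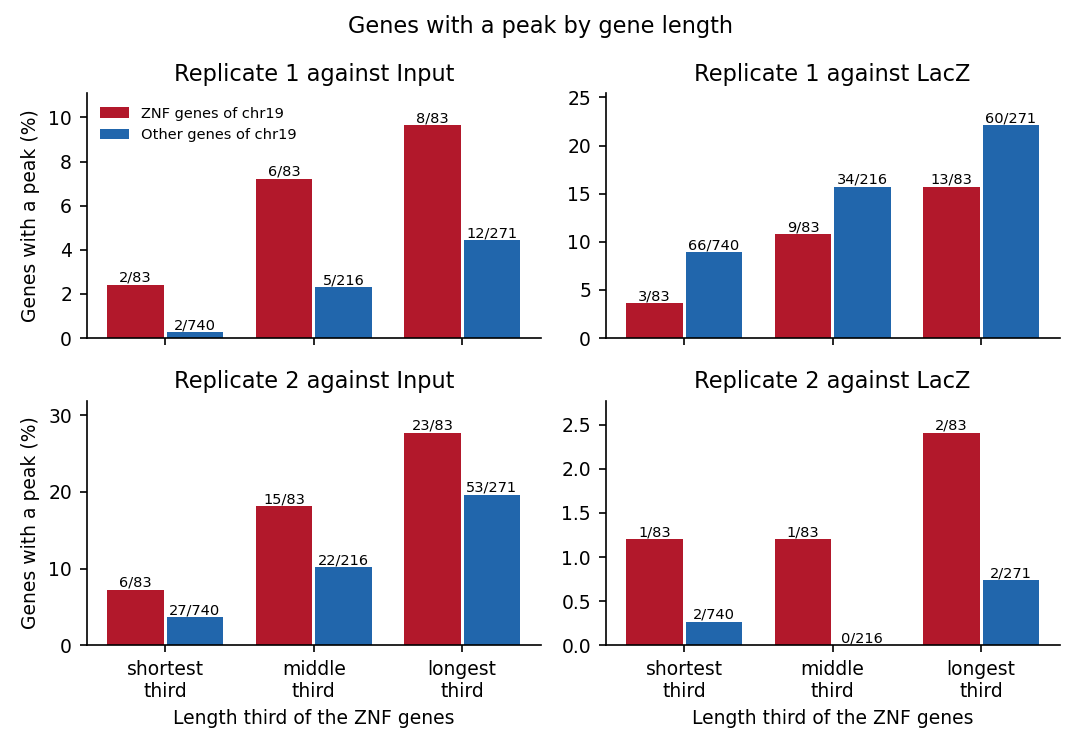
Share of genes with a peak (y axis, percent, from 0, on a separate scale in each panel) in the 3 length classes of the ZNF genes (x axis; class edges 18.4 and 31.3 kb) for the 4 lists. Red bars are ZNF genes of chromosome 19, blue bars the other protein-coding genes, and the numbers are genes with a peak over genes. Red stands above blue in all 3 classes of both Input lists and below it in all 3 classes of the replicate 1 LacZ list.

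The density of peaks gave the same order of the 2 groups. The windows of the ZNF genes covered 8.58 Mb and those of the other genes 28.8 Mb once shared stretches had been given to the ZNF genes. For the Input list of replicate 1 the ZNF windows held 14 peaks, or 1.63 per Mb, and the other windows 15 peaks, or 0.521 per Mb, a ratio of 3.13 (95% interval 1.71 to 5.26). Replicate 2 had 49 peaks against Input, or 5.71 per Mb, where the other windows had 3.30 per Mb, a ratio of 1.73 (1.28 to 2.29). The 22 peaks of replicate 1 against LacZ came to 2.56 per Mb, where the other windows had 4.86 per Mb, a ratio of 0.527 (0.330 to 0.798). Replicate 2 against LacZ had 3 peaks in each kind of window, with a ratio of 3.36 whose interval of 0.692 to 9.81 spans 1.

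The sequence of chromosome 19 outside all protein-coding windows was a further reference. Its densities of 1.61 and 2.42 per Mb in the Input and LacZ lists of replicate 1 lay inside the intervals of the ZNF windows, which ran from 0.892 to 2.74 and from 1.61 to 3.88. With the Input list of replicate 2 it had 3.84 per Mb, below the ZNF interval of 4.23 to 7.55. Protein-coding windows of all chromosomes had 3.02, 3.95, 5.61 and 0.145 peaks per Mb, so that the genome-wide density lay above the ZNF intervals of both replicate 1 lists and inside that of the replicate 2 Input list.

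**Figure D2:**
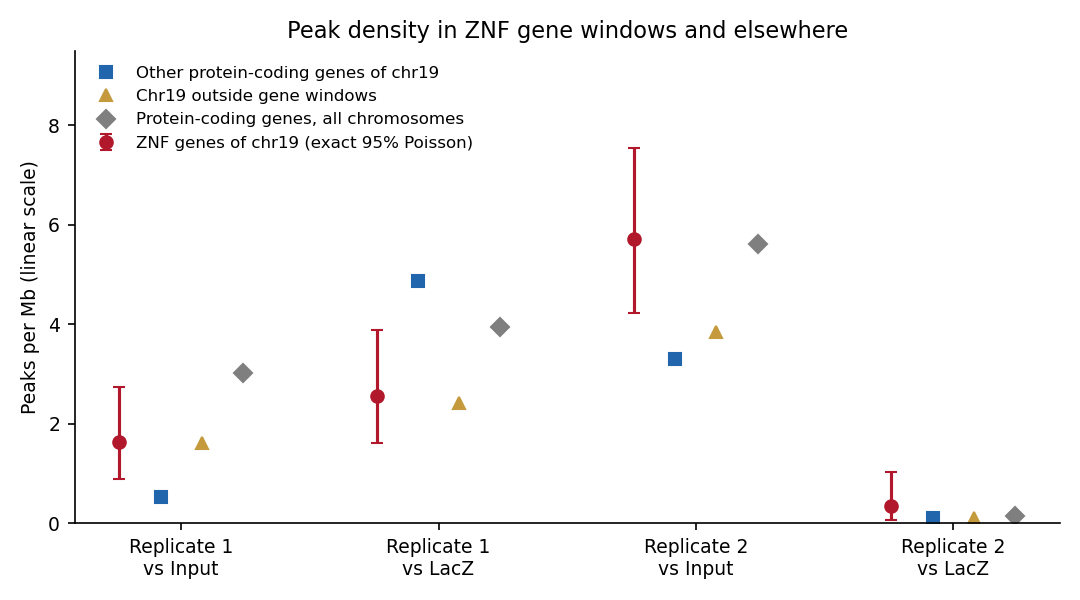
Peaks per Mb (y axis, linear, from 0) for the 4 lists (x axis). Red circles are ZNF gene windows of chromosome 19 with exact Poisson 95% intervals, blue squares the other gene windows of the chromosome, gold triangles its sequence outside gene windows and grey diamonds the protein-coding windows of all chromosomes. The blue square lies below the red interval in both Input lists and above it in the replicate 1 LacZ list.

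Base composition differed between the groups. ZNF windows had 43.5% GC and the other windows 51.8%, while the share of single-copy 31-base words, a measure of how uniquely reads can be placed, was 77.5% and 78.6%. When the other windows were weighted to the GC content of the ZNF windows, the density ratios of the 4 lists became 1.5, 0.556, 1.27 and 4.59. The expected numbers of ZNF peaks behind them were 9.33, 39.6, 38.5 and 0.654, and no interval is given for these ratios. Those of the replicate 1 Input list and the replicate 2 LacZ list rest on few peaks of the other windows. The ratios of both Input lists thus came nearer to 1, and that of the replicate 1 LacZ list, 0.527 before weighting, changed little. Matching whole genes on length and GC together gave 1.52 (95% interval 0.882 to 2.43) and 1.20 (0.790 to 1.73) for replicate 1 against Input and LacZ. For replicate 2 it gave 0.695 (0.517 to 0.904) and 17.4 (4.75 to 43.9). Both replicate 1 intervals spanned 1, and that of replicate 2 against Input lay below 1. By that comparison the replicate 1 LacZ list and the replicate 2 Input list lay on the other side of 1. This matching rests on few genes, since 3 of its 15 bins held a single comparison gene. These bins took in 52 of the 249 ZNF genes. Only 23 other genes had as little GC as the lowest class of 83 ZNF genes. The part of GC content in the difference between the groups was not settled by either comparison.

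Over the 4 lists, 69 ZNF genes (27.7%) had a peak in at least 1 list and 180 had none. The share was 19.7% of the other genes of the chromosome. The 88 peaks in ZNF windows lay at 78 different positions. Genes with a peak had a median length of 30.5 kb and those without 22.5 kb. Both had a median of 12 fingers, and their median GC was 42.9% and 43.9%. A peak was found in 40 of 115 genes on the minus strand and in 29 of 134 on the plus strand. ZNF524, the shortest gene at 3.12 kb, had no peak in any list, and ZNF536, the longest at 489 kb and a repressor of neuronal differentiation, had 4, all in introns. Peaks were found in 17 genes in more than 1 list, in 3 genes in 3 lists and in no gene in all 4. These include genes with the same peak called against both controls from one CRLM1_IP library, named below. The count is therefore no measure of recurrence, and none is given for the other genes.

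Recurrence across replicates was examined next. Against Input, ZNF429, ZNF583, ZNF724 and ZNF813 had a peak in both replicates. They were 25% of the ZNF genes called in replicate 1, where replicate 2 called 17.7% of all ZNF genes. They were 9.09% of those called in replicate 2, where replicate 1 called 6.43% of all ZNF genes. Of the other genes of chromosome 19, 6 were called in both, or 31.6% and 5.88% of the genes called. The shares of all these other genes were 8.31% in replicate 2 and 1.55% in replicate 1. Whether the overlap exceeds these backgrounds was not tested. At the level of positions no ZNF peak was shared. The nearest pair of peaks lay 2.39 kb apart, and the median distance from a replicate 1 peak to a replicate 2 peak was 45.7 kb. Against LacZ, no ZNF gene had a peak in both replicates, out of 25 in replicate 1 and 4 in replicate 2, and none of the other genes of the chromosome had one either.

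The 4 genes called in both replicates are therefore described by separate peaks. ZNF429 had an intronic peak 36.8 kb from its start with a score of 53.59 in the Input list of replicate 1, and another 9.87 kb from its start with a score of 57.73 in that of replicate 2. A further intronic peak of ZNF429, 47.9 kb from the start, was called against LacZ in replicate 1 with a score of 58.14. ZNF724 had an intronic peak at 8.95 kb in both lists of replicate 1, with scores of 51.34 and 51.65, and a peak 0.806 kb upstream in replicate 2 with a score of 61.02. For ZNF813 both replicates had upstream peaks, at 4.96 kb in replicate 1 (scores 50.91 against Input and 51.19 against LacZ) and at 2.09 kb in replicate 2 (55.78 against Input). ZNF583 had an intronic peak at 31 kb in replicate 1 (51.71) and a peak in a UTR at 26.7 kb in replicate 2 (58.72). The score is the peak caller's own value within a list, and its floor in these lists was 50. The median of all peaks was 56.11 and 57.95 in the Input and LacZ lists of replicate 1 and 57.73 in the Input list of replicate 2. All 4 genes lay below it in the replicate 1 Input list, as did ZNF724 and ZNF813 against LacZ and ZNF813 in replicate 2. ZNF429 was at the median in replicate 2, and the remaining peaks were above it.

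Within a replicate the choice of control was compared. In replicate 1, 8 peaks in ZNF windows had the same coordinates in both lists, which was 57.1% of the 14 against Input and 36.4% of the 22 against LacZ. They belonged to ZNF8, ZNF20, ZNF266, ZNF432, ZNF573, ZNF724, ZNF813 and the pair ZNF420 and ZNF585A, whose windows overlap. In the windows of the other genes 13 peaks were shared, or 86.7% of 15 and 9.29% of 140. When only the peaks called against both controls in replicate 1 were kept, ZNF windows had 2.07 times the density of the other windows, whereas the LacZ list as a whole gave 0.527. The ratio of 2.07 rests on these 8 and 13 peaks, and no interval is given for it. In replicate 2, 2 of the 49 peaks against Input, in ZNF45 and ZNF682, were also among the 3 against LacZ, or 4.08% and 66.7%. The other genes were alike, with 2 of 95 and 2 of 3, or 2.11% and 66.7%.

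The highest score in any ZNF window belonged to one of these peaks. The intronic peak of ZNF682, 26.7 kb from its start, had a score of 159.28 against Input and 86.06 against LacZ. The gene had a further peak of 86.26 against Input, 0.961 kb inside its start. The intronic peak of ZNF45 had scores of 87.24 and 77.08. The remaining peak against LacZ had a score of 51.13 and lay 1.93 kb inside the start of ZNF577, where it touched the end of the window of ZNF649. ZNF562 followed in the Input list of replicate 2 with a peak of 93.38 in a UTR.

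The highest score among ZNF peaks in the replicate 1 LacZ list was 117.38, for a peak 1.75 kb upstream of ZNF627 that also lay in the window of ELOF1, a transcription elongation factor gene. The intronic peak of ZNF8 had 96.04 against LacZ and 50.02 against Input, which is at the floor. The peak 0.569 kb upstream of ZNF266 had 87.97 and 81.20, and the latter was the highest among ZNF peaks in the Input list. It was followed there by ZNF432 (64.68, and 70.93 against LacZ) and by the peak shared by ZNF420 and ZNF585A (60.17, and 64.20 against LacZ). The median score of ZNF peaks was 51.75, 59.02, 57.37 and 77.08 in the 4 lists, and that of all peaks of each list was 56.11, 57.95, 57.73 and 56.02. Of the replicate 1 Input list, 11 of 14 ZNF peaks had a score below 60. With peaks of at least 60 alone, the ratio of ZNF genes to the length-matched number in that list was 1.47 on 4 genes (95% interval 0.403 to 3.73).

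Some genes with better known functions had single peaks in introns or upstream. ZNF91, which silences SVA retrotransposons, had an intronic peak in the Input list of replicate 1 (50.93). ZNF350, a binding partner of BRCA1, had one in the LacZ list of replicate 1 (54.23). Among the replicate 2 peaks against Input, ZNF224, a KRAB repressor, had one 3.49 kb upstream (80.27), and ZNF382, also a KRAB repressor, had intronic peaks of 70.47 and 56.41. The former of these lies 1.16 kb upstream of ZNF529 as well. All were chosen here for what is known of the genes, after their values had been seen.

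The position of peaks within the genes was then compared with the sequence available. Introns made up 71.3% of the ZNF windows, the upstream 5 kb 12%, UTRs 9.37%, coding sequence 5.58% and other exons 1.82%. By its midpoint, a peak lay in an intron in 12 of 14, 15 of 22, 36 of 49 and 3 of 3 cases. Upstream peaks numbered 2, 6, 6 and 0. The 6 of the replicate 1 LacZ list were 27.3% of its ZNF peaks, with 13.6% of the peaks of other genes in that list. The Input lists had near equal upstream shares, with 14.3% and 13.3% in replicate 1 and 12.2% and 11.6% in replicate 2. Among ZNF genes, peaks with a midpoint in a UTR were found in the Input list of replicate 2 alone, in ZNF44, ZNF260, ZNF442, ZNF562, ZNF577, ZNF583 and ZNF610. They were 7 of 49 ZNF peaks (14.3%), beside 3 of 95 peaks of the other genes (3.16%). The LacZ list of replicate 1 was turned, with no UTR peak in ZNF genes and 16 of 140 in the others (11.4%). When any overlap with a UTR or coding sequence was counted in place of the midpoint, the ZNF peaks there were 0, 2, 12 and 1 in the 4 lists, or 0%, 9.09%, 24.5% and 33.3%, where the midpoint gave 0, 1, 7 and 0. No test of these differences was made.

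Finger exons, which hold the repeated finger-coding sequence, made up 4.46% of the ZNF windows and the finger-coding bases themselves 2.28%. A single peak overlapped finger-coding bases, that of ZNF211 in the LacZ list of replicate 1 (score 58.27), with 330 finger-coding bp printed in part above. The other 3 lists had none. The single-copy share of finger exons, 83.2%, was no lower than that of the windows as a whole. A RefSeq promoter of 300 bases was matched for 218 of the 249 genes, and a peak lay on one of them only for ZNF497, in the same list (61.86).

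**Figure D3:**
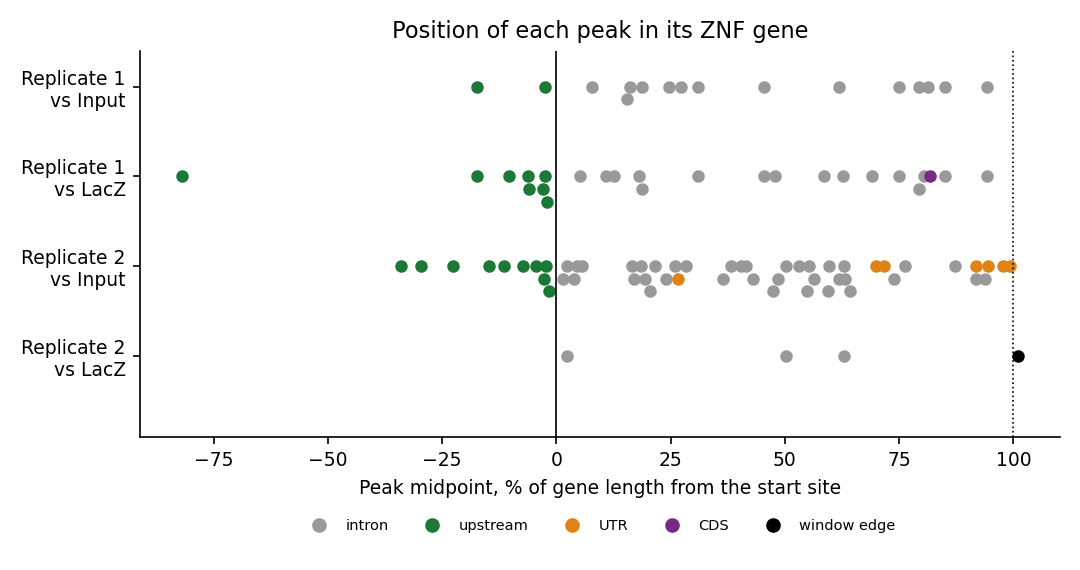
Midpoint of each ZNF gene peak as percent of the gene's length from its start site (x axis; negative values lie upstream, 0 and 100 are the start and end of the gene) for the 4 lists (y axis). A peak in 2 genes is drawn for each, colours give the class of the midpoint, and points are offset vertically only to keep them apart. Intronic points (grey) run along the gene bodies, UTR points (orange) are in the Input list of replicate 2 and the single CDS point (purple) is ZNF211.

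The clusters were compared in 12 consecutive windows of 5 Mb, the last of which ends with the chromosome. Window 12 had the most ZNF genes (59), followed by windows 11 (41) and 5 (32), and window 6 had none. The replicate 2 Input list was led by window 8, where 26 ZNF genes held 10 peaks in 10 of them. Window 5 held 9 in 7 genes and window 12 held 7 in 8 genes. Per Mb of ZNF windows these were 8.27, 5.15 and 5.56, and the other gene windows there had 3.09, 5.13 and 1.98. Window 11 held the most of the replicate 1 LacZ list, with 5 peaks in 5 genes or 3.53 per Mb, beside 4.27 per Mb in the other genes. Windows 5 and 12 held 3 each of the replicate 1 Input list. In window 5, which holds the ZNF682 peaks and the ZNF724 peaks, ZNF genes covered 1.75 Mb and other genes 0.195 Mb, so that it offers little to compare with. The leading window differed between the lists.

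**Figure D4:**
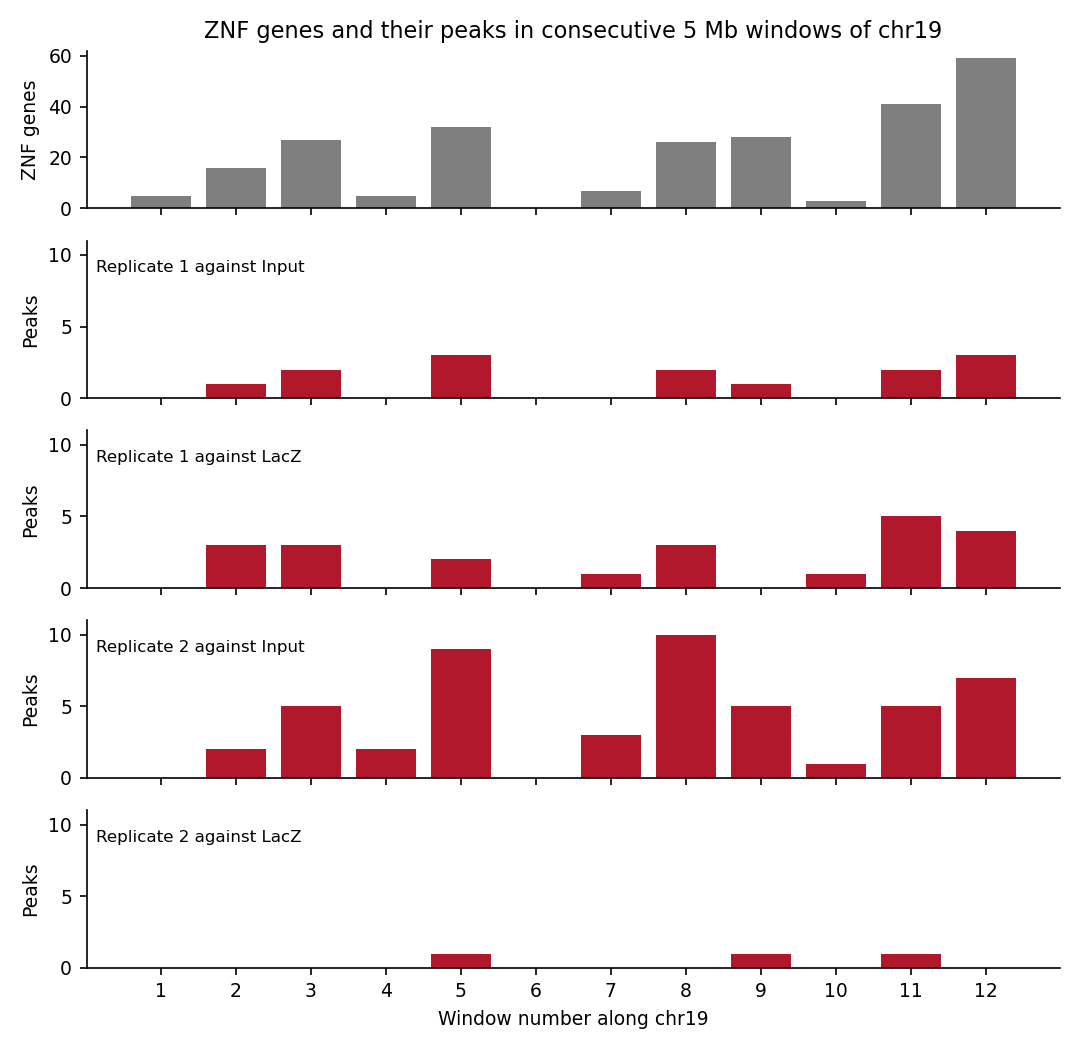
ZNF genes (top, grey) and peaks in ZNF gene windows (red, y axis from 0 to the same height) in 12 consecutive 5 Mb windows of chromosome 19 (x axis; the last is shorter) for the 4 lists. Window 8 leads with 10 peaks in the replicate 2 Input list and window 11 with 5 in the replicate 1 LacZ list, and window 6 has no ZNF gene.

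The sequences of the peaks were searched for features the definition of the genes had not used. A run of at least 12 A or at least 12 T on the forward strand was present in 35 of the 78 distinct ZNF peaks (44.9%). It was present in 15.4% of 21358 consecutive 400 bp tiles of the ZNF windows. By list the share was 35.7% of 14, 40.9% of 22, 49% of 49 and 66.7% of 3 peaks. The same stretches moved along the chromosome by 1 kb had such a run in 10.3% on one side and 20.5% on the other, and moved by 10 kb in 12.8% and 17.9%. By list, stretches moved by up to 10 kb had 7.14% to 28.6% in the replicate 1 Input list and 4.55% to 31.8% in its LacZ list. The range was 10.2% to 22.4% in the replicate 2 Input list, so the contrast was narrower in replicate 1. Of the peaks printed above, that of ZNF8 had a run of 17 bases, and the longest runs in those of ZNF420 and ZNF211 had 6 and 4. With a minimum of 18 bases the share was 21.8% of peaks and 5.87% of tiles. The feature was not particular to ZNF genes, since peaks of the other genes of chromosome 19 had a run in 53.3%, 42.9%, 49.5% and 66.7%, with 16.9% of their tiles.

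**Figure D5:**
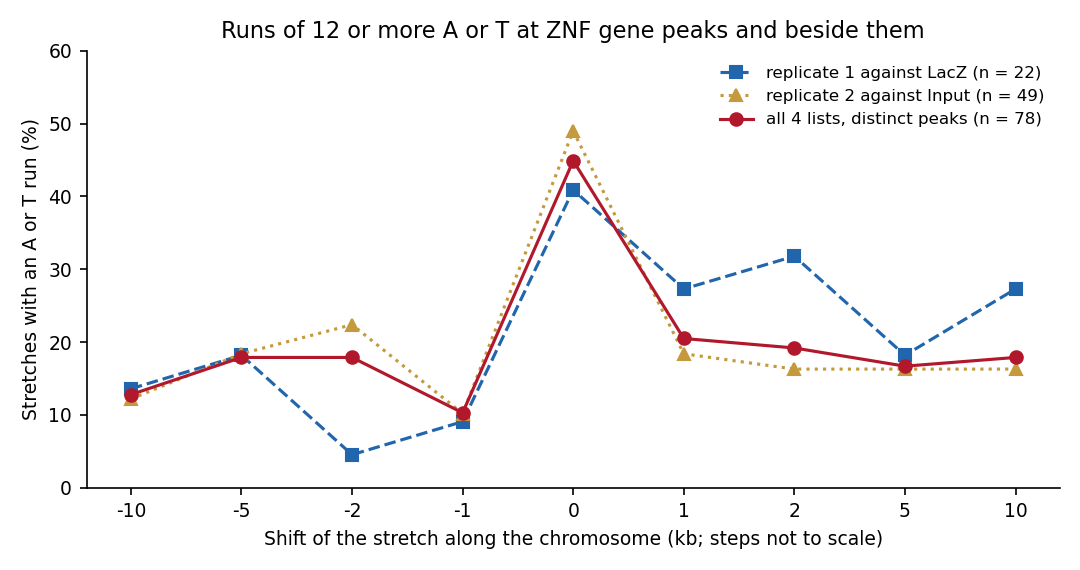
Share of stretches with a run of at least 12 A or 12 T (y axis, percent, from 0) at ZNF gene peaks (shift 0) and in stretches of the same widths moved by up to 10 kb to either side (x axis, steps not to scale). Red circles are the 78 distinct peaks of all 4 lists, blue squares the replicate 1 LacZ list and gold triangles the replicate 2 Input list. Red stands at 44.9% at the peaks and between 10.3% and 20.5% beside them.

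Alu repeats end in such runs, and the RNA they derive from, RN7SL1, was used to look for them. A match to RN7SL1 was found in 42.9%, 45.5%, 42.9% and 33.3% of ZNF peaks in the 4 lists and in 30.9% of the tiles. In the other genes the peaks had 60%, 49.3%, 57.9% and 33.3%, and the tiles 39.5%. Of the 5, 9, 24 and 2 ZNF peaks with a run in the 4 lists, 4, 7, 16 and 1 also matched RN7SL1. Peaks with both were 28.6%, 31.8%, 32.7% and 33.3% of the ZNF peaks, beside 11% of the tiles. In the other genes they were 40%, 31.4%, 38.9% and 33.3%, beside 13.8% of the tiles. None of the printed peaks of ZNF8, ZNF420, ZNF211 and ZNF497 matched RN7SL1. The printed run of ZNF8 is in this respect unlike most runs in ZNF peaks of its list. A match to the LINC01767 transcripts was found in 14.3%, 31.8%, 20.4% and 0% of ZNF peaks, with 22.9% of the tiles, so that the peaks were on both sides of the background. Of the peaks printed in whole or in part above, those of ZNF8 and ZNF497 matched LINC01767, and those of ZNF420 and ZNF211 did not. No peak matched any of the 9 CRLM1 capture probes. Whether runs, repeats or read placement bear on where peaks were called was not tested.

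Related groups of genes were set beside the ZNF genes. The 267 ZNF genes of other chromosomes had a peak in 9.36%, 15.4%, 18.4% and 0.749% of cases, or 0.849, 0.839, 0.922 and 0.916 times the number expected from length-matched protein-coding genes outside chromosome 19. Of 18 other zinc finger genes of chromosome 19, with symbols starting with ZFP, ZSCAN, ZIM, ZIK or ZBTB, ZFP30, ZFP82, ZSCAN4 and ZSCAN5A had a peak in the replicate 2 Input list. These 4 were 22.2%, the same share as in all protein-coding genes, where 1.82 genes were expected from other genes of chromosome 19 of like length. None had one in the other lists, where 0.428, 2.84 and 0.0737 were expected. Of 22 genes that encode partners of KRAB zinc finger proteins and the heterochromatin machinery they use, 2, 6, 5 and 1 had a peak in the 4 lists, or 9.09%, 27.3%, 22.7% and 4.55%, beside 13.1%, 20.2%, 22.2% and 1.02% of all protein-coding genes. These partner genes were not matched on length, and they ranged from 4.46 kb (DAXX) to 281 kb (ATRX). DNMT3A, a DNA methyltransferase gene of 115 kb, had a peak in 3 lists with scores of 60.02, 97.83 and 60.46. SETDB1 had one in the replicate 1 LacZ list (62.48), and TRIM28 and HNRNPK had none in any list. UHRF1, which couples DNA methylation to replication, was the single partner gene with a peak in the replicate 2 LacZ list (50.96).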

How the data were processed

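The authors trimmed ChIRP-seq reads of 6 HCT116 libraries with cutadapt and aligned them to GRCh38 with Bowtie2 (tools and build also per the labels). Peaks were called with MACS. The lists used here hold each replicate separately, and the methods do not state whether replicates were pooled. They are not the single peak set that the study reported. The deposited files hold peak positions and a score. The scale of that score is unstated: the methods give MACS2 and a q-value limit, but naming of peaks and a minimum score of 50 point to an earlier MACS release, so neither version nor threshold was settled. The files hold no counts, so depth is unknown. The LacZ-overlap filter of the study was not applied, and LacZ calls against Input were not used here.

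Gene models were GENCODE release 44. Peaks were matched to gene windows (body plus 5 kb upstream, overlap of at least 1 bp) in Python 3.11.15 with numpy 2.4.6 and scipy 1.17.1, and figures were drawn with matplotlib 3.10.9. Expected numbers of genes came from 10 length bins, with exact 95% binomial or Poisson intervals that cover counting error only. The code was tested on simulated data. The finger pattern was C, 2 residues, C, 12 residues, H, 3 to 5 residues, H. Single-copy words were 31 bases long. Peak sequences were compared with RN7SL1, LINC01767 and the probes by blastn 2.17.0 (word size 11, E value of at most 1e-05 in a search space of 1000000 bases). No statistical test was run: the results are descriptions of 4 lists. Named genes were those called in both replicates with the same control, those with a peak in replicate 2 against LacZ, the 3 with most peaks including ties, the 3 highest-scoring peaks per list, those with a midpoint in coding sequence, and the longest and shortest gene. The genes, lists and rules were chosen with earlier results of these data known. Alternatives included score minimums, gene windows, length bins, comparison genes, GC weighting, mappability and leaving out a replicate. The sequences of some high-scoring peaks are not reported here.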

Additional observations from a re-analysis of the deposited data

How the results depend on the processing

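Of 120 alternative values, 102 kept their direction and stayed inside the 95% interval of the reported value or, for counts, within 1.5 times of it, 14 moved further and 4 lay on the other side of 1. Those intervals are wide. Among the 102, ZNF genes overlapping no other gene window gave 1.83 for genes and 1.89 for density in replicate 1 against Input. For replicate 2 against LacZ, a score of at least 60 gave 8.32 and 6.71. A window reaching 10 kb upstream gave a gene ratio of 3.07 in that list, with a 95% interval of 0.839 to 7.76. Genes of all chromosomes gave 2.63 there (0.718 to 6.64), so both of these intervals spanned 1. Peaks called against both controls gave a density ratio of 2.07 for replicate 1 against Input as well, and any overlap moved the shares in UTR or coding sequence to 9.09%, 24.5% and 33.3%. In replicate 1 against Input, peaks at or above the median score gave a gene ratio of 1.33 and a density ratio of 1.26, and peaks of at least 60 gave 1.47 and 1.44. Genes of all chromosomes as the comparison gave gene ratios against Input of 0.826 (replicate 1) and 1.12 (replicate 2). Bins of length and GC content gave 1.52, 1.20, 0.695 and 17.4 in the 4 lists, in the order used above, and GC weighting gave density ratios of 1.5 and 1.27 against Input in replicates 1 and 2. Peaks called against both controls gave density ratios of 2.07 for replicate 1 against LacZ and 3.36 for replicate 2 against Input, the latter on 2 peaks. The cause of these shifts was not tested. The 4 genes with a peak in both replicates against Input became 0 at the median score and 2 with the gene body alone. With a replicate left out, the 56 genes called in either replicate against Input became 16 to 44, and the 29 against LacZ became 4 to 25, as each list is then alone. GC weighting, the length and GC bins, the single-copy words and the both-controls set were chosen after seeing the data. No paired analysis was possible because the results come from no test. Depth is unknown, and the few peaks of replicate 2 against LacZ limit every value from that list.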
